A study of Mus musculus with 5 samples.

Results

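The genes described here are the nuclear-encoded subunits of oxidative phosphorylation (OXPHOS) in bone marrow–derived macrophages (BMDMs) after coculture with 4T1 cells, a mouse mammary carcinoma line. Members were chosen by gene symbol alone. They are the genes whose RefSeq symbol begins with Ndufa, Ndufb, Ndufc, Ndufs, Ndufv, Uqcr, Cox4 to Cox8 or Atp5, together with Sdha to Sdhd, Cyc1 and Cycs. The symbols matched 117 genes, and 8 assembly factors and 19 pseudogenes were left out, which gave 90 members. Of the 17058 genes with a value in the files, 84 were members. Of the 12576 genes that passed the filter on low counts, 82 were members.

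The macrophages were grown from bone marrow of female BALB/c mice aged 6 to 12 weeks with M-CSF, the growth factor that drives macrophage differentiation. They were then kept for 48 hours with WT 4T1 cells (2 libraries) or with Adam17-/- 4T1 cells (3 libraries). A porous membrane separated the cancer cells from the macrophages, and the RNA was that of the macrophages. ADAM17, a membrane protease that sheds growth factors and cytokines from the cell surface, was deleted by CRISPR/Cas9 in the 4T1 cells only. The labels give all 3 Adam17-/- libraries the same line designation, 2.8, so an effect of the deletion and other features of that line cannot be told apart. No library of macrophages without cancer cells was analysed here. The labels do not say whether the libraries of a group came from separate cultures or animals, so the p-values measure the spread between these libraries, which may be technical.

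OXPHOS is the process by which mitochondria turn the energy of nutrients into ATP. Complexes I and II pass electrons from NADH and succinate to ubiquinone, complex III passes them on to cytochrome c, and complex IV passes them to oxygen, while complexes I, III and IV pump protons across the inner membrane. Complex V, the ATP synthase, uses the return flow of protons to make ATP. Macrophages are known to change their use of this machinery with activation: inflammatory stimulation with bacterial products lowers respiration in favor of glycolysis, and activation by IL-4 relies on respiration. The mitochondrial genome encodes a small set of core subunits, and these genes were not analysed here.

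The library totals were 14658694 to 20788373 counts, and a gene at 3 counts in a library stood at 0.157 to 0.197 CPM (counts scaled to the TMM-normalized library total). Of the 8 macrophage markers examined, 6 were called lower in Adam17-/- coculture, and their summed level was 27520 to 28230 CPM in the WT libraries and 17830 to 19810 CPM in the Adam17-/- libraries. The levels of the macrophage markers ran from Mertk, at 68.5 to 72.5 CPM, to Lyz2, which encodes lysozyme, at 7724 CPM or more in every library. Of 8 neutrophil precursor markers, 6 were called higher (summed 149.6 to 175.7 against 500.1 to 674.6 CPM). All 6 megakaryocyte markers were called higher (115.9 to 138.7 against 165.2 to 251.7 CPM). Of 7 mammary epithelial markers, 1 passed the filter and was not called, the list summed to 10.99 to 13.85 CPM over all libraries, and Epcam had 0 counts in 4 of 5 libraries. Of 5 T and B cell markers, 1 was tested and not called, and of 6 cycling-cell markers, 2 were higher and 1 was lower. Their part in the results below was not tested, and in bulk RNA fewer cells of a type and less RNA per cell cannot be told apart. Adam17 itself was measured in macrophages that carry the intact gene, so it is no check of the deletion. It was measured at 198 and 200 CPM after WT coculture and at 152, 164 and 161 CPM after Adam17-/- coculture.

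A minority of the OXPHOS genes was called, all of them lower and by small amounts. In edgeR's quasi-likelihood test with Benjamini-Hochberg adjustment, 18 of 82 members (22.0%) were lower in macrophages from Adam17-/- coculture at an adjusted p of 0.05 or less, against 16.8% of all genes tested. None was higher, against 14.9% of all genes tested. At an unadjusted p under 0.05, 0 members were higher and 30 were lower, against 20.9% and 22.6% of all genes tested. DESeq2 called 0 members higher and 10 lower, and of all genes to which it gave an adjusted p it called 11.8% higher and 15.5% lower. In 42 members (51.2%) all 3 Adam17-/- libraries lay below both WT libraries, against 29.7% of all genes tested. In 0 members did they all lie above, against 28.4% of all genes tested, and in the other 40 the groups overlapped.

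The median log2 fold change (Adam17-/- over WT coculture) was -0.17 over the 82 members and 0.01 over all genes tested, with a range over the members from -0.72 to 0.46. Of the members, 65 had a negative value and 17 a positive one, and the split became 44 to 38 when the counts were scaled by library size only and 43 to 39 with limma on FPKM values. The median of all genes was 0.16 with library size only and 0.15 and 0.11 with limma on log2(FPKM + 0.1) and log2(FPKM + 1), and the median of the members was -0.03, -0.02 and -0.02. The distance between the medians of the members and of all genes was -0.18 as reported and between -0.24 and -0.14 under the alternatives. No member changed by a factor of 2 or more, and the called members were 1.18- to 1.65-fold lower.

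**Figure D1:**
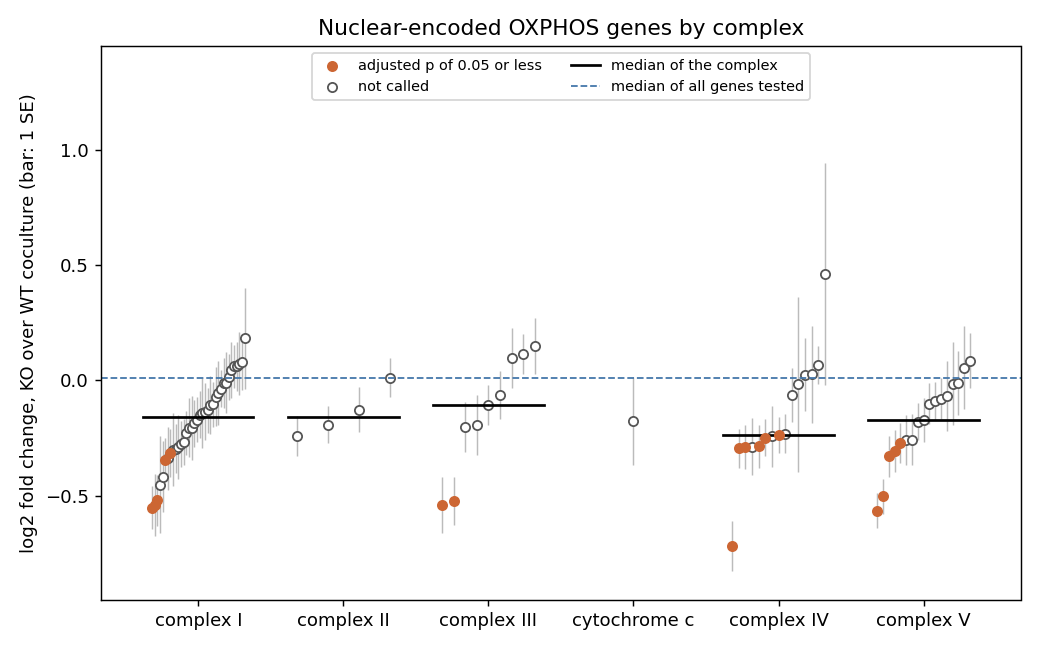
Log2 fold change of each of the 82 tested members (Adam17-/- over WT coculture, vertical axis) by complex (horizontal axis), with bars of 1 SE from edgeR, filled points for an adjusted p of 0.05 or less, black lines at the median of a complex and a dashed line at the median of all genes tested (0.01). The filled points, 18 in number, all lie below the dashed line, and complex II and cytochrome c hold none of them. Under scaling by library size only, the members' median moved from -0.17 to -0.03.

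The promoters were searched for short motifs, which the choice by symbol did not use. In RefSeq windows of 300 bases (250 before and 50 after the start site, build GRCm38.p6), 68 of the 82 members matched at least 1 window, for 73 windows. The letters GCGCANGCG, the core of the site of nuclear respiratory factor 1 (NRF1, a known activator of respiratory chain genes), stood on either strand in 30.1% of the members' windows, in 13.0% of the windows of all genes tested and in 6.25% of all 32851 windows. The ETS motif CCGGAAG, which GABPA (also called NRF2) binds, stood in 23.3%, 17.5% and 8.86%, and the YY1 motif AAGATGGC in 13.7%, 4.47% and 2.75%. TATAAA stood in 9.59%, 7.30% and 13.6%, CACGTG (the E-box that MYC can bind) in 9.59%, 9.86% and 7.15%, and the GC box GGGCGG in 41.1%, 60.8% and 35.7%. Of the windows of members called lower, 7 of 16 held the NRF1 letters, and of the windows of the other members 15 of 57 did. The split went the other way for the YY1 letters (1 of 16 against 9 of 57) and for the GC box (31.2% against 43.9%), and for the ETS letters it was 5 of 16 against 12 of 57. No test of these shares was made, and a match is a description of the letters and not evidence of binding.

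The 120 bases before the start site are shown for 4 members, to set side by side members with different responses and motifs, with capitals on the NRF1 and ETS letters found on either strand. Cox6a1 (chr5:115348959-115349078, minus strand) and Ndufa11 (chr17:56717642-56717761, plus strand) were called lower and hold NRF1 letters, in Ndufa11 on both strands with an offset of 1 base. Uqcr11 (chr10:80406822-80406941, minus strand) was called lower and holds the ETS letters alone. Cycs (chr6:50566570-50566689, minus strand), the gene of cytochrome c, was not called and holds the NRF1 letters. Each runs 5′ to 3′ on the gene's strand.
Cox6a1: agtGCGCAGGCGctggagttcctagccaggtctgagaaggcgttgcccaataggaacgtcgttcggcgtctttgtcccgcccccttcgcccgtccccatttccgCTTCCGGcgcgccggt
Ndufa11: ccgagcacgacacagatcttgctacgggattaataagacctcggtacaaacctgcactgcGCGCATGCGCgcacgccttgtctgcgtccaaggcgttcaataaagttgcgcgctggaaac
Uqcr11: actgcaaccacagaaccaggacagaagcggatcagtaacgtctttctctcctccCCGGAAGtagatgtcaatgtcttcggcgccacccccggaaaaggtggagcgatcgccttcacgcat
Cycs: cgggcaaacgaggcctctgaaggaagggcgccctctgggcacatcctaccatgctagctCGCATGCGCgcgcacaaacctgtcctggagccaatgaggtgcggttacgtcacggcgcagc
The windows thus show the NRF1 letters in members that fell and in a member that did not pass the test. In Cox6a1 the ETS letters begin 16 bases before the start and the NRF1 letters 117 bases before it. Atp5b, Ndufa12 and Uqcrc1, all called lower, hold neither set of letters in their 120 bases.

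Complex I, the NADH dehydrogenase, had 36 tested members, of which 5 were lower (13.9%, against 16.8% of all genes tested) and 31 were not called (median log2 fold change -0.16). They were Ndufa9, Ndufa10, Ndufa11, Ndufa12 and Ndufs8. Ndufa12 (chr10:94199035-94221440), an accessory subunit of the matrix arm, was at 29.5 and 29.4 CPM in the WT libraries and at 19.5, 20.4 and 20.4 CPM in the Adam17-/- libraries. The groups did not overlap, and the libraries of each group lay within 1 CPM of each other. The difference was -0.55 ± 0.09 (log2 fold change ± SE, adjusted p = 0.00274), or 1.46-fold.

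Ndufa11 (chr17:56717762-56724248), an accessory subunit of the membrane arm, was at 22.3 and 19.6 CPM against 14.6, 13.9 and 15.4 CPM. Both WT libraries lay above all Adam17-/- libraries, and the log2 fold change was -0.52 ± 0.11 (adjusted p = 0.00781). Ndufs8 (chr19:3908863-3912774), which carries a pair of iron-sulfur clusters, was at 18.0 and 19.2 CPM against 13.4, 10.7 and 14.2 CPM. Its Adam17-/- libraries were more spread, with replicate 2 the lowest, and the log2 fold change was -0.54 ± 0.14 (adjusted p = 0.0152). Without Adam17-/- replicate 1 or replicate 2, with library size only and on FPKM values, Ndufs8 was no longer called. Ndufa9 (-0.34, adjusted p = 0.0215) and Ndufa10 (-0.31, adjusted p = 0.0453) had smaller differences, with all Adam17-/- libraries below both WT libraries, and they were called in 5 and 2 of the 13 alternative fits.

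The subunits that take up electrons from NADH gave small values on either side of 0. Ndufv1, which binds NADH and the flavin, was at 30.2 and 27.8 CPM in the WT libraries and at 27.8, 25.6 and 27.6 CPM in the Adam17-/- libraries, with a log2 fold change of -0.10 ± 0.10 (adjusted p = 0.434). Ndufs1, the largest of the iron-sulfur subunits, was at 50.5 and 59.7 CPM against 57.5, 58.0 and 56.9 CPM, or 0.06 ± 0.09 (adjusted p = 0.647). All 3 Adam17-/- libraries of Ndufs1 lay between the WT libraries. The core subunits Ndufs3 (0.01), Ndufs7 (-0.01) and Ndufv2 (0.06) were not called either. Ndufb10 (-0.42 ± 0.15, adjusted p = 0.0653) had a fold change close to those of called members, and its WT libraries stood far apart, at 27.6 and 18.6 CPM.

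Ndufv3 is made as a short and a long transcript, and the long transcript took 18.8% and 20.4% of the gene's FPKM with WT coculture and 19.1%, 22.2% and 23.6% with Adam17-/- coculture. These ranges overlapped. The gene as a whole had a log2 fold change of -0.23 ± 0.10 (adjusted p = 0.0977).

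Complex II, the succinate dehydrogenase, which also belongs to the tricarboxylic acid cycle, had 4 tested members and none was called (median log2 fold change -0.16). Of all genes tested, 16.8% were called lower and 14.9% higher. At an unadjusted p under 0.05 in edgeR's test 2 were lower (Sdha and Sdhc) and 0 were higher, against 22.6% and 20.9% of all genes tested. DESeq2 called 0 of the 4, against 15.5% lower and 11.8% higher of all genes with an adjusted p. The flavoprotein Sdha was at 126 and 132 CPM in the WT libraries and at 109, 115 and 116 CPM in the Adam17-/- libraries. The groups did not overlap, and the log2 fold change was -0.19 ± 0.08 (adjusted p = 0.0941). The iron-sulfur subunit Sdhb was at 34.0 and 39.3 CPM against 33.1, 34.6 and 33.0 CPM, with overlapping groups (-0.13 ± 0.10, adjusted p = 0.341). The membrane anchors were at -0.24 (Sdhc, adjusted p = 0.0586) and 0.01 (Sdhd, adjusted p = 0.926).

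Complex III, the ubiquinol-cytochrome c reductase, had 9 tested members, of which 2 were lower (22.2%, against 16.8% of all genes tested) and 7 were not called (median -0.11). Uqcrc1 (chr9:108936648-108949641), a core protein of the matrix side, was at 84.3 and 70.0 CPM in the WT libraries and at 51.3, 51.5 and 58.2 CPM in the Adam17-/- libraries. WT replicate 1 was the highest, and the groups did not overlap. The log2 fold change was -0.52 ± 0.11 (adjusted p = 0.00595). Its partner Uqcrc2 was at 45.0 and 55.4 CPM against 49.6, 46.5 and 48.0 CPM, and the Adam17-/- libraries lay between the WT libraries (-0.06, adjusted p = 0.679).

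Uqcr11 (chr10:80402997-80406821), a small accessory subunit, was at 30.3 and 24.5 CPM against 18.1, 20.5 and 18.2 CPM. All Adam17-/- libraries lay below both WT libraries, and the log2 fold change was -0.54 ± 0.12 (adjusted p = 0.00947). Without Adam17-/- replicate 1 its adjusted p was 0.0539. The catalytic subunits gave no call. Cyc1, cytochrome c1, was at 58.9 and 55.6 CPM against 54.9, 54.6 and 50.0 CPM (-0.11 ± 0.09, adjusted p = 0.378). The Rieske iron-sulfur protein Uqcrfs1 was at 19.5 and 24.7 CPM against 25.4, 25.1 and 23.0 CPM (0.15 ± 0.12, adjusted p = 0.365), and WT replicate 1 was the lowest library.

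Cycs, the mobile carrier cytochrome c, was at 18.6 and 31.4 CPM in the WT libraries and at 24.1, 19.7 and 22.3 CPM in the Adam17-/- libraries. The WT libraries enclosed all the others, and the log2 fold change of -0.18 ± 0.19 (adjusted p = 0.506) was within that spread. The testis form Cyct, outside the members, had 1 count in 1 library and 0 in the others.

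**Figure D2:**
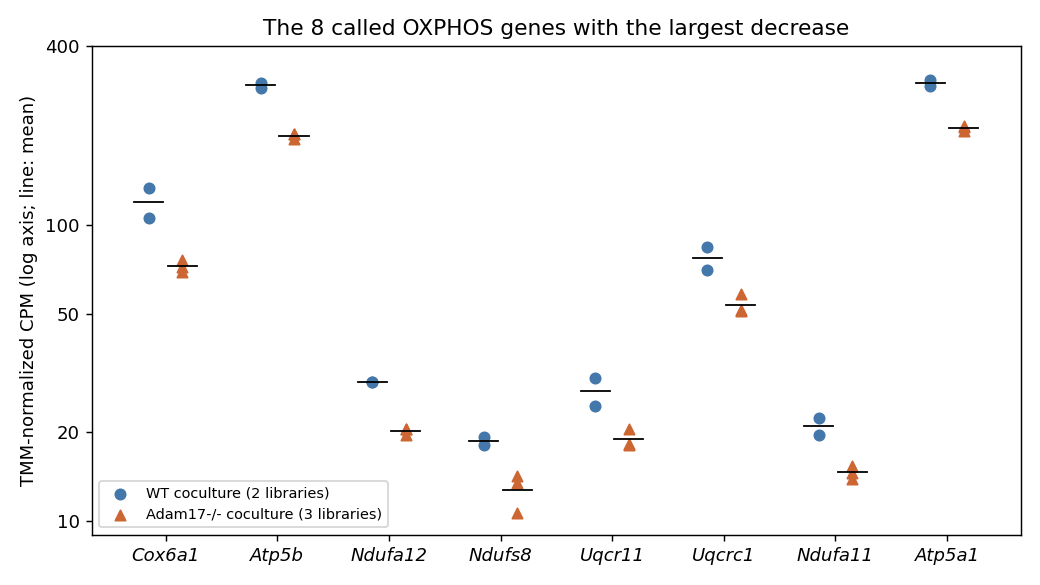
TMM-normalized CPM (log axis) of the 8 called members with the largest decrease, ordered from left to right by log2 fold change, with blue circles for the 2 WT libraries, orange triangles for the 3 Adam17-/- libraries and lines at the group means. In each gene all 3 triangles lie below both circles, and Cox6a1, Uqcr11 and Uqcrc1 show the widest gap between the circles.

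Complex IV, cytochrome c oxidase, had 15 tested members, of which 6 were lower (against 16.8% of all genes tested) and 9 were not called, and the median was -0.24. Cox6a1 (chr5:115345652-115348958), the form of subunit VIa found outside heart and skeletal muscle, had the largest decrease among the members in this fit. It was at 133 and 105 CPM in the WT libraries and at 71.8, 69.0 and 76.1 CPM in the Adam17-/- libraries. WT replicate 1 was the highest, and the lower WT library still lay above every Adam17-/- library. The log2 fold change was -0.72 ± 0.11 (adjusted p = 0.00164), or 1.65-fold lower.

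The other called subunits of complex IV fell by smaller amounts. Cox4i1, the common form of subunit IV, was at 108 and 104 CPM against 91.5, 89.0 and 90.3 CPM (-0.24 ± 0.08, adjusted p = 0.0439). Cox5a, a subunit of the matrix side, was at 42.9 and 47.2 CPM against 35.2, 36.9 and 38.8 CPM (-0.29 ± 0.09, adjusted p = 0.0406). Cox5b, a zinc-binding subunit, was at 53.2 and 50.0 CPM against 41.2, 42.2 and 43.0 CPM (-0.29 ± 0.08, adjusted p = 0.0264). In these genes the groups did not overlap, and in each the call was lost with limma on FPKM, with library size only or upper quartile factors, under the replicate block and when any 1 Adam17-/- library was left out. Cox4i1 and Cox5a also lost it with DESeq2 and with no low-count filter. Of the 13 alternative fits, Cox4i1 and Cox5a were called in 2 each and Cox5b in 5. Cox7c (-0.29, adjusted p = 0.0451) and Cox8a (-0.25, adjusted p = 0.0411) were called as well, and likewise in few of the 13 alternative fits (2 and 3). The counts of Cox7c are uncertain, since they were not whole numbers, as where reads match several genes.

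Subunits of complex IV with tissue-specific forms were expressed in their common form. On the TPM scale, which allows levels of different genes to be compared, Cox4i1 stood at 316 to 337 TPM over the 5 libraries and the lung form Cox4i2 at 1.23 to 2.92 TPM. Cox4i2 was at 0.419 and 0.487 CPM in the WT libraries and at 0.711, 0.329 and 0.794 CPM in the Adam17-/- libraries (0.46 ± 0.48, adjusted p = 0.489), with overlapping groups. Cox6a1 stood at 366 to 610 TPM, and its muscle form Cox6a2 had counts of 4 and 1 (WT) and of 1, 0 and 1 (Adam17-/-) and did not pass the filter. Cox6b1 stood at 331 to 379 TPM and the testis form Cox6b2 at 14.9 to 20.6 TPM. The log2 fold change was -0.23 for Cox6b1 (adjusted p = 0.0607) and 0.03 for Cox6b2 (adjusted p = 0.935). Cox8a stood at 426 to 484 TPM, and Cox8b, Cox8c and Cox7b2 had no value in the files.

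Among the forms of subunit VIIa, Cox7a2l, which joins complexes III and IV into supercomplexes, was the most abundant, at 276 to 368 TPM. Cox7a2 stood at 57.9 to 79.8 TPM and the muscle form Cox7a1 at 6.51 to 13.8 TPM. Cox7a2l was at 134 and 148 CPM in the WT libraries and at 154, 145 and 143 CPM in the Adam17-/- libraries (0.07 ± 0.08, adjusted p = 0.572). Cox7a2 was at 18.6 and 24.4 CPM against 19.2, 18.4 and 17.0 CPM (-0.24 ± 0.13, adjusted p = 0.189), and Cox7a1 gave -0.02 (adjusted p = 0.978). Cox7b was at -0.29 (adjusted p = 0.102). The TPM ratio of Cox7a2l to Cox7a2 within a library was 4.77 and 4.02 with WT and 5.32, 5.22 and 5.59 with Adam17-/- coculture, and these ranges did not overlap.

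Ndufa4, once assigned to complex I and known as a subunit of complex IV, was at 20.8 and 24.8 CPM against 20.0, 22.9 and 22.7 CPM (-0.06, adjusted p = 0.711). Its paralog Ndufa4l2, a gene induced by hypoxia, had counts of 1 and 1 (WT) and of 8, 3 and 2 (Adam17-/-) and did not pass the filter. A further paralog, AA467197 (also named Coxfa4l3), lies outside the members. It was at 0.837 and 1.03 CPM against 1.48, 1.97 and 2.07 CPM and was called higher (0.97 ± 0.30, adjusted p = 0.0364).

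Complex V, the ATP synthase, had 17 tested members, of which 5 were lower (29.4%, against 16.8% of all genes tested) and 12 were not called, with a median of -0.17. Both subunits of its catalytic ring fell, by similar amounts. Atp5b (also named Atp5f1b, chr10:128083307-128090388), the catalytic beta subunit, was at 300 and 289 CPM in the WT libraries and at 194, 202 and 202 CPM in the Adam17-/- libraries. Atp5a1 (also named Atp5f1a, chr18:77773768-77782869), the alpha subunit, was at 307 and 292 CPM against 207, 215 and 213 CPM. In both genes the groups stood far apart relative to the spread within them. The log2 fold changes were -0.57 ± 0.08 for Atp5b (adjusted p = 0.00102), the smallest adjusted p among the members, and -0.50 ± 0.08 for Atp5a1 (adjusted p = 0.00168).

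The other subunits had smaller log2 fold changes. The central stalk subunit Atp5c1 was at 75.1 and 79.0 CPM against 67.9, 69.3 and 67.1 CPM (-0.18 ± 0.08, adjusted p = 0.117), and Atp5d of the same stalk had -0.26 (adjusted p = 0.102). Atp5o, the subunit that makes the synthase sensitive to oligomycin, fell by 0.31 on the log2 scale (adjusted p = 0.0309) and Atp5l of the membrane part by 0.27 (adjusted p = 0.0383). These calls were kept in 3 (Atp5o) and 2 (Atp5l) of the 13 alternative fits and lost, for both, with DESeq2, the other scalings and the replicate block. The inhibitor gene Atpif1, which blocks ATP hydrolysis by the enzyme and lies outside the members, was at 49.6 and 59.1 CPM against 47.1, 48.7 and 52.0 CPM (-0.14 ± 0.10, adjusted p = 0.307).

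The proton-carrying c subunit is encoded by Atp5g1, Atp5g2 and Atp5g3, which give the same mature protein. Atp5g3 was at 44.0 and 42.6 CPM against 35.3, 35.4 and 32.7 CPM and fell (-0.33 ± 0.09, adjusted p = 0.0198), a call kept in 6 of the 13 alternative fits. Atp5g1 was at 26.8 and 25.3 CPM against 19.8, 21.9 and 23.7 CPM (-0.26 ± 0.11, adjusted p = 0.0945), and Atp5g2 at 58.4 and 55.2 CPM against 52.2, 53.4 and 54.6 CPM (-0.09 ± 0.08, adjusted p = 0.442). In all 3 genes the groups did not overlap. The share of Atp5g2 in the TPM of the 3 genes was 49.5% and 49.1% with WT coculture and 52.9%, 52.6% and 53.6% with Adam17-/- coculture.

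Ratios between subunits within a library do not depend on how the libraries are scaled. The TPM ratio of Atp5b to Atp5c1 was 2.45 and 2.25 with WT coculture and 1.75, 1.80 and 1.85 with Adam17-/- coculture, and that of Atp5a1 to Atp5c1 was 1.92 and 1.73 against 1.42, 1.46 and 1.49. The ratio of Atp5b to Atp5a1 was 1.28 and 1.30 against 1.23, 1.23 and 1.24. The ratio of Cox6a1 to Cox6b1 was 1.79 and 1.34 against 1.10, 1.11 and 1.13, and that of Uqcrc1 to Uqcrc2 was 2.13 and 1.44 against 1.17, 1.26 and 1.38. In each of these 5 ratios the groups did not overlap, and for the last the gap between the groups was small beside the gap between the WT libraries. In all but the ratio of Atp5b to Atp5a1, a called member was divided by a member that was not called. The lack of overlap there follows in part from those calls, and how often other pairs of genes show it is not given. No p is given for a ratio, since 2 against 3 libraries allow an exact permutation p no smaller than 0.1.

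**Figure D3:**
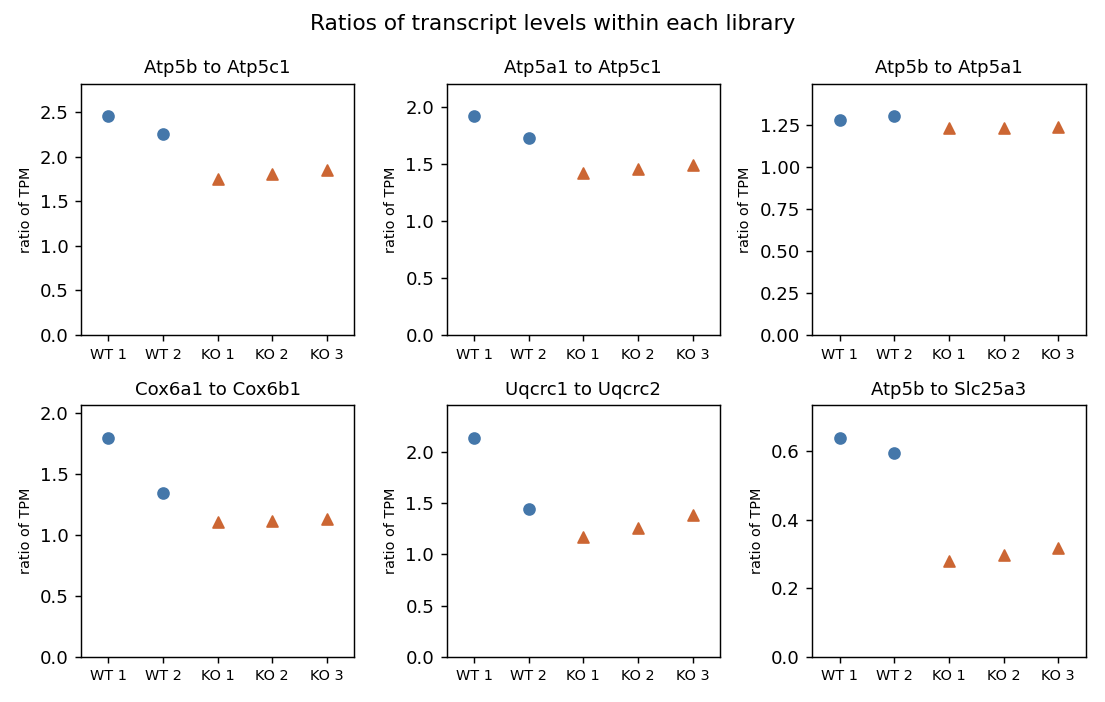
Ratios of TPM between 2 genes within each library (vertical axes, from 0), for the 2 WT libraries (blue circles) and the 3 Adam17-/- libraries (orange triangles). The ratio of Atp5b to Slc25a3 fell from 0.638 and 0.596 to 0.281, 0.298 and 0.318, that of Atp5b to Atp5a1 stayed between 1.23 and 1.30, and the WT libraries were widely spread for Uqcrc1 to Uqcrc2.

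The summed CPM of all members was 3459 and 3502 with WT coculture and 2956, 2929 and 3003 with Adam17-/- coculture, a ratio of the means of 0.851. Complex V had the lowest ratio, 0.791, followed by complex IV (0.850), complex I (0.898), complex III (0.900) and complex II (0.904). The means of the complex V sums were 1192 CPM (WT) and 943.4 CPM (Adam17-/-). Atp5a1 and Atp5b held 299.7 and 294.5 CPM of the first and 211.7 and 199.1 CPM of the second. These 2 genes thus weigh heavily in the ratio of complex V, and the order of the complexes is not one of their other subunits. On the TPM scale, which is relative to all transcripts of a library, the sums were 9294 and 9964 against 9394, 9207 and 9359 TPM. There the groups overlapped, and the ratio was 0.968 over all members, 0.928 for complex IV, 0.955 for complex V, 0.997 for complex I, 1.02 for complex II and 1.03 for complex III. The sums for complexes II and III thus differed in direction between these scales, which differ in library scaling and in the weight given to transcript length, and only the sum of complex IV was without overlap on both scales. That sum was 2902 and 3083 TPM with WT and 2811, 2741 and 2775 TPM with Adam17-/- coculture. Cox6a1 alone held 610 and 506 TPM of it with WT and 381, 366 and 396 TPM with Adam17-/- coculture. The lack of overlap on the TPM scale therefore cannot be read as a decrease across the complex.

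The members were expressed at a median of 25.1 CPM over the 5 libraries, from 0.548 CPM (Cox4i2) upward, and 56 of the 82 had a transcript under 1000 nucleotides. Abundant genes were called lower more often in this comparison as a whole. Among genes at 100 to 400 CPM, 2 of 4 members were lower, against 30.6% of all genes tested. At 50 to 100 CPM 4 of 14 members were lower (28.6%, against 24.4%), at 20 to 50 CPM 10 of 38 (26.3%, against 19.3%) and under 20 CPM 2 of 26 (7.69%, against 7.07%). The medians of the members in these bins, from high to low level, were -0.35, -0.20, -0.17 and -0.12, against -0.11, -0.07, -0.04 and 0.14 for all genes tested in the same bins. Among short transcripts, the median was -0.17 for the 56 members and -0.03 for all 909 genes tested, of which 86 were higher and 116 lower. No test was made of these differences, and the part of expression level in the calls was not tested.

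**Figure D4:**
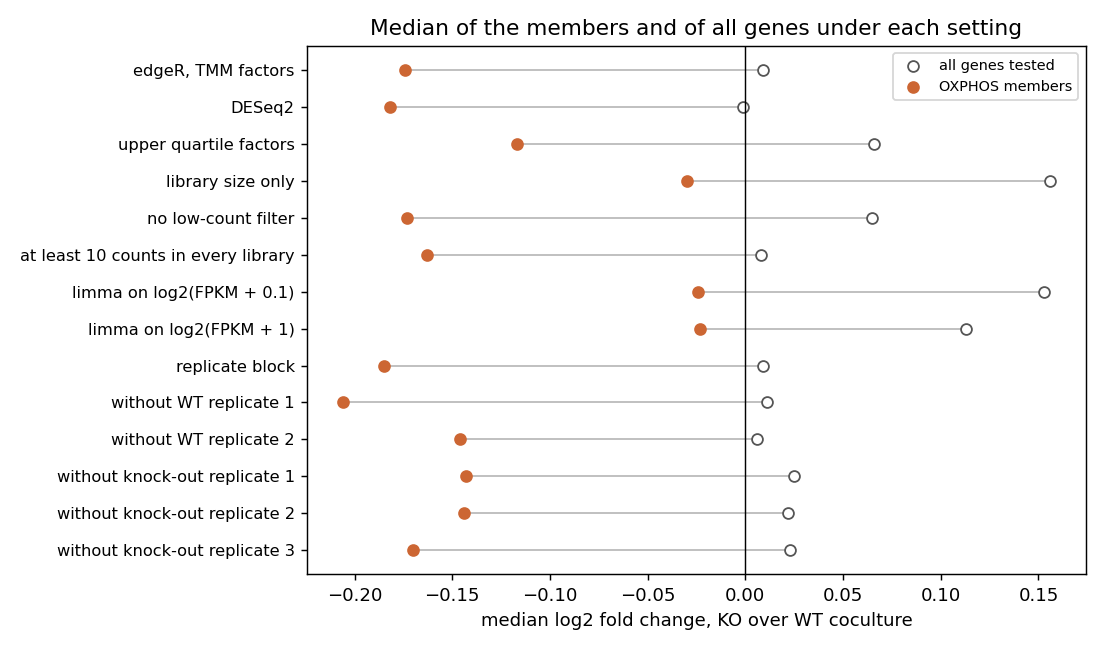
Median log2 fold change (Adam17-/- over WT coculture, horizontal axis) of the members (orange) and of all genes tested (open circles) as reported (top) and 13 alternatives. The members' median lies below 0 and below that of all genes in every setting, between -0.21 and -0.02, and comes closest to 0 when the counts are scaled by library size only or FPKM values are used.

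The 17 genes of the tricarboxylic acid cycle, which supplies complexes I and II with NADH and succinate, had a median of -0.29, and 8 were lower and 1 was higher, beside 16.8% lower and 14.9% higher among all genes tested. The largest decrease was that of Mdh2, mitochondrial malate dehydrogenase, at 111 and 102 CPM in the WT libraries and 54.8, 65.8 and 66.8 CPM in the Adam17-/- libraries (-0.77 ± 0.10, adjusted p = 0.00105). The NADH-producing Idh3a (-0.62), the citrate-forming enzyme Cs (-0.40) and Ogdh and Dlst (both -0.39) were among the genes that were lower as well. Pdhb, a subunit of pyruvate dehydrogenase, was higher (0.37, adjusted p = 0.0315).

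Of 15 tested carriers and electron gates of the mitochondrial membranes, 3 were lower and 2 were higher (median -0.13), beside shares of 16.8% and 14.9% among all genes tested. Slc25a3, the carrier that brings phosphate to the ATP synthase, was at 375 and 387 CPM in the WT libraries and at 550, 541 and 505 CPM in the Adam17-/- libraries (0.48 ± 0.08, adjusted p = 0.00289). It thus moved against Atp5b, and the TPM ratio of Atp5b to Slc25a3 was 0.638 and 0.596 against 0.281, 0.298 and 0.318. The ADP/ATP carrier Slc25a5 was lower (-0.49, adjusted p = 0.00317), as were the uncoupling protein Ucp2 (-0.43, adjusted p = 0.00407) and Etfa (-0.35, adjusted p = 0.0471). The outer membrane channel Vdac1 was higher (0.27, adjusted p = 0.0438).

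The assembly factors of the complexes, 56 tested, had a median of 0.01, with 3 higher and 2 lower, where all genes tested had 14.9% and 16.8%. The higher ones were Acad9 of complex I (0.30, adjusted p = 0.0398), Cep89 (0.56, adjusted p = 0.0213) and Cox20 (0.78, adjusted p = 0.0142) of complex IV. The lower ones were Ecsit of complex I (-0.55, adjusted p = 0.0300) and Sco2, a copper chaperone of complex IV (-1.04, adjusted p = 0.00377). The annotated spans of Cox20, Sco2 and Ecsit overlap those of other genes with counts (Hnrnpu for Cox20, Ncaph2 and Tymp for Sco2, the lncRNA Gm16845 for Ecsit), and whether strand was used in the counting is not given in the sources used here, so their values are uncertain.

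Of 20 tested regulators of mitochondrial biogenesis, 4 were higher (against 14.9% of all genes tested) and 5 were lower (against 16.8%), with a median of 0.09. Of the factors tied above to a motif, Nrf1 (log2 fold change -0.07), Gabpa (0.07) and Yy1 (-0.01) were not called, nor was the nuclear receptor Esrra (-0.02). Tfam, which packages mitochondrial DNA and starts its transcription, had 0.18 (adjusted p = 0.316). Myc, tied above to the E-box, was lower, at 67.6 and 51.5 CPM against 15.7, 14.7 and 23.3 CPM (-1.73 ± 0.18, adjusted p = 0.000477), and so was the coactivator Pprc1 (-0.76, adjusted p = 0.00109). Polrmt, the mitochondrial RNA polymerase (-0.46), and the stress factors Nfe2l1 (-0.57) and Nfe2l2 (-0.23) were lower too. Higher were Tfb2m (0.46), Ssbp1 (0.56), Gabpb1 (0.33) and Polg2 (0.79), of which the span of Polg2 overlaps that of Milr1. Ppargc1a had 0 to 2 counts per library and was not tested.

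The genes of 2 families of ribosomal proteins, those of the mitochondrial and of the cytosolic ribosome, were counted as well. Of 78 mitochondrial ribosomal protein genes, 6 were lower (against 16.8% of all genes tested) and 2 were higher (against 14.9%), with a median of -0.16. In 31 of them all Adam17-/- libraries lay below both WT libraries (against 29.7% of all genes tested). Of 79 cytosolic ribosomal protein genes, 5 were higher (against 14.9% of all genes tested), 0 were lower (against 16.8%) and 74 were not called (median 0.04).

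**Figure D5:**
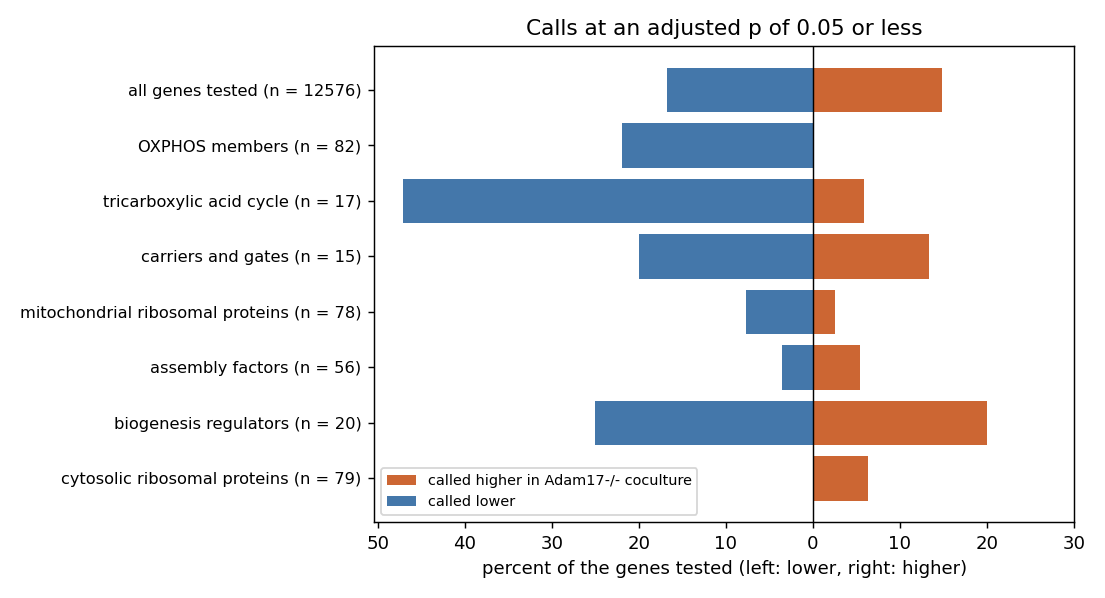
Percent of the tested genes called lower (blue, to the left) and higher (orange, to the right) at an adjusted p of 0.05 or less in all genes tested and in each list, with the number tested beside the name. All genes tested show 16.8% lower and 14.9% higher, the members 22.0% lower and 0 higher. With scaling by library size only the members show 7 lower of 82, and the share of all genes under that scaling is not given.

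The calls differed in how well they held. All 18 called members kept their direction in 13 of 13 alternative fits, and 6 of them (Cox6a1, Atp5b, Ndufa12, Uqcrc1, Ndufa11 and Atp5a1) were called in all 13. In all 18 the groups did not overlap, so leaving out 1 library could hardly turn their sign. Some members that were not called, such as Ndufb2 and Ndufb6, also kept their direction in all 13. The number of members called lower was 6, 7 and 8 without Adam17-/- replicates 1, 2 and 3, and 25 and 20 without WT replicates 1 and 2. Without WT replicate 2, 3 members (Ndufc1, Uqcrb and Uqcrfs1) were called higher, and with limma on FPKM values 1 (Uqcrh) was. These counts are given without the share of all genes called in the same fit. Over the members, the median log2 ratio of WT replicate 2 over WT replicate 1 was 0.07, and the median of its absolute value for single members was 0.16, with 48 members higher in replicate 2 and 34 higher in replicate 1.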

How the data were processed

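RNA-Seq of 5 BMDM samples, assigned to groups from their labels, was analyzed. The authors used a BGISEQ-500 instrument, HISAT with build GRCm38, and Bowtie2. The submitters' processing notes also name RSEM, and no tool version is given in the sources used here. The authors deposited per transcript the unnormalized expected count and the FPKM, which is scaled by transcript length and library size. The files list no transcript below an FPKM of 0.01, and such transcripts count as 0. An expected count divides reads that match several transcripts, so genes with near-identical copies are uncertain.

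Expected counts of a gene's transcripts were added and rounded to whole numbers. The test was the quasi-likelihood fit of edgeR 4.0.16 (R 4.3.3) with TMM factors and no covariates over the 12576 genes that filterByExpr kept, with Benjamini-Hochberg adjustment over all of them and a call at an adjusted p of 0.05 or less with no limit on the fold change. Levels are TMM-normalized CPM. TPM are the deposited FPKM summed per gene and rescaled to the same total in every library. Library totals of 14658694 to 20788373 counts set the precision, and counting error and the spread between libraries both enter the fit. Of 17058 genes, 17015 were matched by identifier to RefSeq, which gave symbols, coordinates and promoter windows of GRCm38.p6.

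The members, lists and tests were chosen with earlier results of these data known. Full values were given for the called members with the largest change (up to 8 in each direction), for a set of catalytic and other central subunits and for isoforms with their partners, and other members were named where a call or a complex is described. The lists of other genes were given by counts and examples of called members. Values of 2 genes are not reported here. Alternatives were DESeq2 1.42.0, scaling by library size only or by upper quartile factors, other filters on low counts, limma 3.58.1 on log2(FPKM + 0.1) and log2(FPKM + 1), the replicate number as a block, each library left out in turn and stricter thresholds. On simulated counts for this comparison with 200 changed genes (folds of 1.5 and 2), edgeR called 156 of them and 4 unchanged genes among 12576, and DESeq2 called 145 and 3. Every simulated gene had the same dispersion (the median of the data), whereas in the data 1869 genes were called higher and 2114 lower. The simulation therefore does not cover spread that differs between genes or the choice of library scaling. Figures and tables used Python 3.11.15, pandas 2.3.3, numpy 2.4.6 and matplotlib 3.10.9.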

Additional observations from a re-analysis of the deposited data

How the results depend on the processing

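The number of members called lower, 18 as reported, was 10 with DESeq2 (which gave no adjusted p to 2 members), 10 with upper quartile factors, 7 with library size only, 7 with limma on log2(FPKM + 0.1), 7 on log2(FPKM + 1) and 6 to 25 with 1 library left out, and 14 to 15 under the other filters on low counts. It was 0 when a log2 change of at least 1 was required and 0 at an adjusted p of 0.001 or less. The share of all genes called is given only for the reported fit and DESeq2. The counts of members under the other settings therefore cannot be read as above or below the share of all genes. The number called higher, 0 as reported, was 1 in each limma fit and 0 to 3 with 1 library left out. The median of the members, -0.17 as reported, was -0.12 with upper quartile factors, -0.03 with library size only, -0.024 and -0.023 in the limma fits and -0.21 to -0.14 with 1 library left out. The replicate block, possible for the 2 numbers that both groups share, gave 8 members lower and 0 higher with a median of -0.18; same-numbered libraries did not deviate together (correlations -0.16 and -0.08), so the numbers are not shown to pair the samples. Of the members not called, 17 were called in at least 1 alternative and 36 changed sign in at least 1. No simulation was made at changes under 1.5-fold. Where 1 WT library was left, it was assumed to vary like the Adam17-/- group. The causes of these changes were not tested.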
